A study of Homo sapiens
Mus musculus with 16 samples.

Results

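Kit and 5 genes of the mast cell granule and receptor, Cpa3, Cma1, Mcpt4, Tpsb2 and Ms4a2, were followed in the mouse cells of human tumours grown in mice. They were taken by symbol from the mouse expression table, which lists 23337 genes, and all 6 were found. The tumours were xenografts of ScaBER, an established human bladder squamous carcinoma line, in Hsd:Athymic Nude-Foxn1nu mice, which lack a thymus and so most T cells. Over 14 days the mice were given 40 mg/kg nintedanib, 25 mg/kg alpelisib (the compound BYL719), the combination of both doses, and vehicle (0.5% methylcellulose with 0.1% Tween80), with 4 libraries each and 16 in all. Nintedanib blocks receptor kinases for VEGF, PDGF and FGF. Alpelisib blocks PI3K alpha. The stated purpose was to learn how the drugs act together in the tumour and its stroma. The labels name whole tumours, with no sort of host cells, and do not say whether each library came from its own mouse.

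Mast cells are tissue-resident immune cells that store proteases, histamine and proteoglycan in granules. Kit, the receptor for stem cell factor (Kitl), is needed for their survival, and PI3K is one of the pathways it signals through. Connective tissue mast cells, the kind found in skin and around vessels, carry the chymases Mcpt4 and Cma1, the tryptase Tpsb2 and the carboxypeptidase Cpa3, while mucosal mast cells carry Mcpt1 and Mcpt2. Ms4a2 is the beta chain of the high-affinity IgE receptor. Kit is also made by melanocytes and by some progenitor and other stromal cells, so it marks mast cells less closely than the proteases do.

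None of the 6 genes passed the test in any comparison, and for each of them the drug groups overlapped vehicle. The granule proteases were present in every library and spread widely from tumour to tumour within each group. Cpa3 and Cma1 had means of 97.1 and 103 in nintedanib tumours, 64.0 and 98.8 in alpelisib tumours and 56.3 and 102 in combination tumours, against 28.1 and 32.2 in vehicle tumours. Mcpt4 and Tpsb2 had means within 1 SD of vehicle in all 3 drug groups, and Kit means were 39.4, 39.1 and 32.1 with nintedanib, alpelisib and the combination, against 53.3 with vehicle. Values are normalized expression values, that is, reads divided by a size factor of the library. Differences are on the log2(value + 1) scale, which understates the change of low genes.

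Depth was 3606008 to 6850491 mouse reads per library, and mouse reads made up 19.3% to 34.0% of all reads. The 6 genes drew 665 (Kit), 1069 (Cpa3), 1515 (Cma1), 2008 (Mcpt4), 3361 (Tpsb2) and 9 (Ms4a2) reads over the 16 libraries. All 6 passed the filter on low values (1 or more in 4 or more libraries), Ms4a2 with exactly 4. The test was limma on all 17484 mouse genes that passed, with Benjamini-Hochberg adjustment and a threshold of 0.05. It called 0 of 6 members for nintedanib minus vehicle and 0 of 6 for alpelisib minus vehicle, where 0% of all genes were called. The count was 0 of 6 for combination minus vehicle, where 0.0515% of all genes were called, and 0 of 6 for combination minus nintedanib, combination minus alpelisib and the interaction, where 0% were. It was also 0 of 6 for nintedanib averaged over alpelisib, where 0.0972% of all genes were called, and 0 of 6 for alpelisib averaged over nintedanib, where 0% were. At an unadjusted p under 0.05, limma gave 1 member, Cpa3, for nintedanib minus vehicle, where 6.01% of all genes passed, and 0 members in the other 7 comparisons. There the shares of all genes were 3.26% for alpelisib minus vehicle, 7.67% for combination minus vehicle, 5.14% for combination minus nintedanib, 5.76% for combination minus alpelisib, 3.12% for the interaction, and 8.8% and 5.28% for nintedanib and alpelisib averaged. On recovered reads, edgeR and DESeq2 also called 0 of 6 members in all 8 comparisons. The 3 comparisons with vehicle share its 4 libraries and are not independent of each other. In bulk tumours, fewer mast cells and less of these RNAs per cell cannot be told apart.

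**Figure D1:**
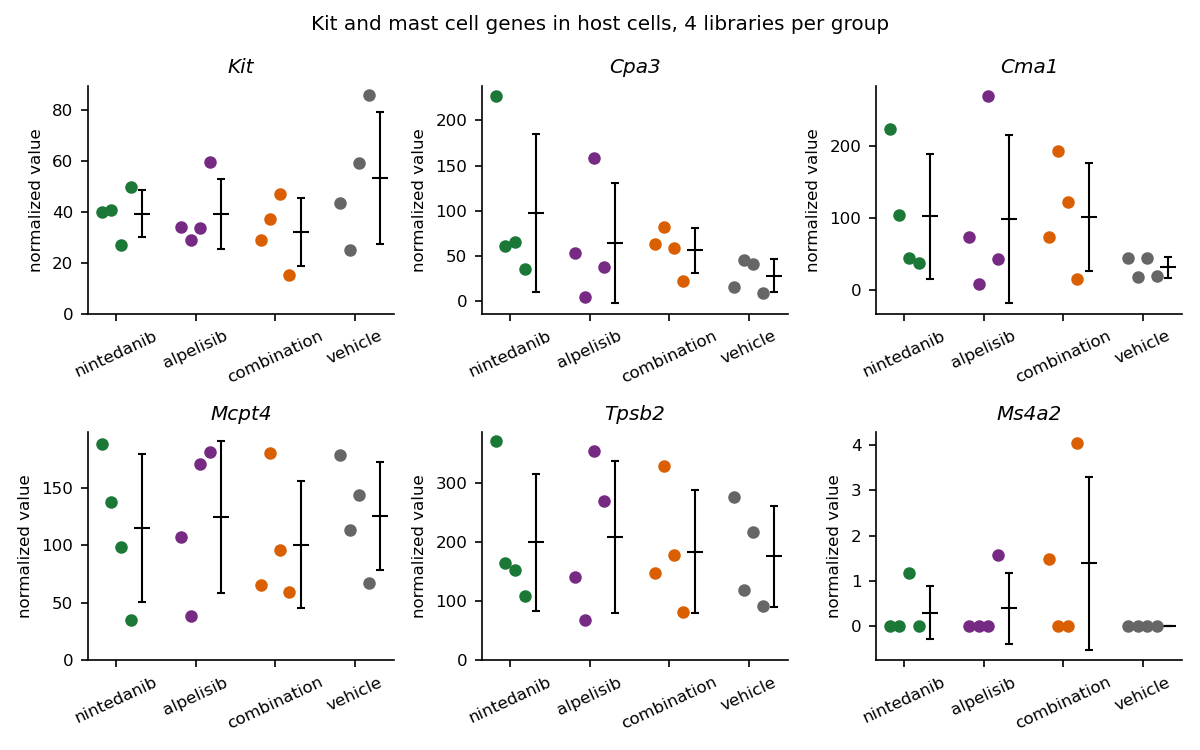
Normalized value of each gene in each library (points, 4 per group), with the group mean and SD beside them. Cpa3 reaches 227 in nintedanib 1 and Cma1 270 in alpelisib 3, against at most 46.0 and 45.2 in vehicle libraries, while Mcpt4 and Tpsb2 cover similar ranges in the 4 groups. Kit spreads most in vehicle, 24.9 to 86.0, and Ms4a2 is at or near 0.

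Kit, the stem cell factor receptor, had 40.1, 40.6, 27.0 and 49.8 in nintedanib tumours and 34.0, 29.1, 33.8 and 59.5 in alpelisib tumours. It had 28.8, 37.2, 47.0 and 15.2 in combination tumours, against 43.3, 24.9, 59.1 and 86.0 in vehicle tumours. The highest of the 16 was vehicle 4 and the lowest combination 4, which are 5.65-fold apart, and all 4 groups overlapped. Mean ± SD was 39.4 ± 9.38 with nintedanib, 39.1 ± 13.8 with alpelisib and 32.1 ± 13.5 with the combination, against 53.3 ± 25.9 with vehicle (SD, n = 4 each). From low to high the means ran combination, alpelisib, nintedanib, vehicle, and the SD was largest in vehicle. The limma difference was -0.33 for nintedanib (95% interval -1.17 to 0.52, adjusted p = 0.942) and -0.36 for alpelisib (-1.21 to 0.49, adjusted p = 1). For the combination it was -0.69 (-1.54 to 0.16, adjusted p = 0.718). Leaving out 1 library moved these values over ranges of -0.64 to -0.06, -0.67 to -0.09 and -1.001 to -0.38 in the same order. Averaged over the other drug, the difference was -0.33 ± 0.29 for nintedanib and -0.36 ± 0.29 for alpelisib (SE), with adjusted p of 0.800 and 0.892 in limma.

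Cpa3, the granule carboxypeptidase of mast cells, had 227, 60.9, 65.6 and 35.4 in nintedanib tumours and 53.8, 5.20, 159 and 38.4 in alpelisib tumours. It had 62.9, 81.6, 58.5 and 22.3 in combination tumours, against 15.7, 46.0, 41.0 and 9.55 in vehicle tumours. Nintedanib 1 stood far above its group, alpelisib held both the lowest library and the second highest, and every drug group overlapped vehicle. The span from alpelisib 2, with 5 reads, to nintedanib 1, with 243 reads, was 43.6-fold. Cpa3 had the smallest p of the members, with a difference of 1.65 ± 0.76 (SE) for nintedanib minus vehicle (95% interval 0.07 to 3.24, limma adjusted p = 0.804). Mean ± SD behind it was 97.1 ± 87.4 with nintedanib and 28.1 ± 18.1 with vehicle (SD, n = 4 each). Differences were 0.65 for alpelisib (-0.93 to 2.24, adjusted p = 1) and 1.10 for the combination (-0.48 to 2.68, adjusted p = 0.777). The alpelisib value was -0.03 without alpelisib 3 and 1.53 without alpelisib 2. Averaged over the other drug, Cpa3 differed by 1.05 ± 0.54 for nintedanib (SE, limma adjusted p = 0.592), the smallest adjusted p of any member, and by 0.05 ± 0.54 for alpelisib (adjusted p = 0.997).

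Cma1, a chymase kept in the same granules, had 224, 104, 44.5 and 37.6 in nintedanib tumours and 73.7, 8.32, 270 and 43.9 in alpelisib tumours. It had 74.7, 194, 123 and 16.2 in combination tumours, against 45.2, 18.7, 44.7 and 20.5 in vehicle tumours. The 4 vehicle libraries lay at 18.7 to 45.2. Alpelisib and combination libraries reached both above and below that range. All nintedanib libraries were at 37.6 or more, with nintedanib 3 and 4 inside the vehicle range. Differences from vehicle were 1.39 for nintedanib (95% interval -0.32 to 3.10, limma adjusted p = 0.882) and 0.81 for alpelisib (-0.90 to 2.52, adjusted p = 1). The combination differed by 1.29 (-0.42 to 2.99, adjusted p = 0.750). Without combination 4 the last value was 1.99, with an adjusted p of 0.330, the smallest of any member under 27 settings of limma, edgeR and DESeq2. Without alpelisib 3 the alpelisib value was 0.04, and without alpelisib 2 it was 1.66. Averaged over the other drug, Cma1 differed by 0.93 ± 0.58 for nintedanib and 0.36 ± 0.58 for alpelisib (SE), with limma adjusted p of 0.677 and 0.956.

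Mcpt4, the chymase typical of connective tissue mast cells, had 188, 137.5, 98.5 and 35.4 in nintedanib tumours and 107.7, 38.5, 171 and 182 in alpelisib tumours. It had 65.8, 180.2, 96.3 and 59.8 in combination tumours, against 179, 113, 144 and 66.9 in vehicle tumours. The 4 groups covered nearly the same range. Differences were -0.27 for nintedanib (95% interval -1.33 to 0.79, limma adjusted p = 0.963), -0.15 for alpelisib (-1.20 to 0.91, adjusted p = 1) and -0.37 for the combination (-1.43 to 0.68, adjusted p = 0.920). The nintedanib value was 0.21 without nintedanib 4, and the alpelisib value was 0.34 without alpelisib 2 and 0.05 without vehicle 1. Averaged over the other drug, Mcpt4 differed by -0.25 ± 0.36 for nintedanib and -0.12 ± 0.36 for alpelisib (SE), with limma adjusted p of 0.882 and 0.980.

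Tpsb2, the main tryptase of these cells, had 371, 165, 153.5 and 109.5 in nintedanib tumours and 142, 68.6, 355 and 270.2 in alpelisib tumours. It had 147, 329, 179 and 82.1 in combination tumours, against 277, 119, 217 and 91.4 in vehicle tumours. Again the 4 groups covered nearly the same range. Differences were 0.16 for nintedanib (95% interval -0.86 to 1.19, limma adjusted p = 0.976), 0.13 for alpelisib (-0.90 to 1.15, adjusted p = 1) and 0.03 for the combination (-0.99 to 1.05, adjusted p = 0.997). Leaving out 1 library moved them over ranges of -0.19 to 0.42, -0.21 to 0.57 and -0.31 to 0.36, so Tpsb2 had no stable direction. Averaged over the other drug, Tpsb2 differed by 0.03 ± 0.35 for nintedanib (SE, limma adjusted p = 0.991) and by -0.003 ± 0.35 for alpelisib (adjusted p = 0.999). Tpsb2 and Tpsab1 are related tryptase genes and Mcpt1, Mcpt2, Mcpt4, Mcpt9, Cma1 and Cma2 are related chymases. How reads that match more than 1 of them were counted is not known.

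Ms4a2, which pairs with Fcer1a and Fcer1g in the IgE receptor, was close to the limit of these libraries. It had 1 read in nintedanib 3, 2 reads in alpelisib 4, and 2 and 4 reads in combination 1 and 4, against 0 reads in all vehicle libraries. In CPM over the mouse reads of the group this was 0.0512 with nintedanib, 0.0963 with alpelisib and 0.276 with the combination, against 0 with vehicle, where 0 reads allow up to 0.184 (a limit of 3 reads, for counting error only). The combination value lies above that limit and the other drug groups below it, and the 6 reads of the combination group came from 2 of its 4 libraries, with a limma adjusted p of 0.742. No fold is given. Fcer1a, the IgE-binding chain, was also low, with ranges of 0 to 2.80 in nintedanib tumours, 0 to 9.44 in alpelisib tumours and 0.739 to 11.5 in combination tumours, against 0 to 1.36 in vehicle tumours.

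**Figure D2:**
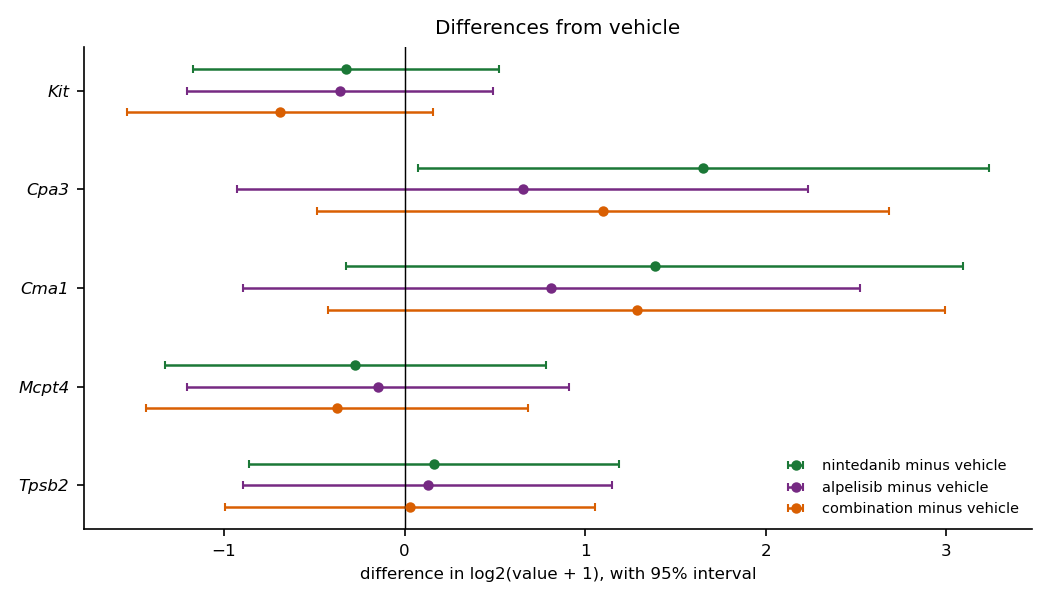
Limma difference from vehicle in log2(value + 1) for each gene with reads in every library (points), with its 95% interval (bars), for nintedanib, alpelisib and the combination. All intervals include 0 except that of Cpa3 for nintedanib minus vehicle, 0.07 to 3.24, whose adjusted p was 0.804.

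As a group, the 6 members had a median difference of 0.22 for nintedanib, 0.23 for alpelisib and 0.47 for the combination, against medians of 0.02, 0.01 and 0.03 over all genes tested. With Ms4a2 set to its bound where vehicle had no read, the member medians were 0.08, 0.06 and 0.33. In each of the 3 comparisons 4 members lay above 0 and 2 below, where 52.0%, 51.5% and 53.0% of all genes lay above 0. Ms4a2 is among the 4, beside Cpa3, Cma1 and Tpsb2. It had no vehicle read and passed the filter through drug libraries only, so its side of 0 was fixed in advance. All 6 members overlapped between the groups in all 5 pairwise comparisons. The share of all genes without overlap was 3.69% for nintedanib minus vehicle, 2.1% for alpelisib minus vehicle, 3.85% for combination minus vehicle, 2.48% for combination minus nintedanib and 2.86% for combination minus alpelisib.

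Across the 16 libraries the 4 abundant proteases varied together, and Kit followed them weakly or not at all. On log2(value + 1), Pearson's r was 0.86 between Cpa3 and Cma1, 0.88 between Mcpt4 and Tpsb2, and 0.83 between Cma1 and Tpsb2. It was 0.71 between Cpa3 and Tpsb2, 0.64 between Cma1 and Mcpt4 and 0.58 between Cpa3 and Mcpt4. Once the 2 libraries farthest from the median of Cpa3 were left out, r of Cpa3 was 0.80 with Cma1 and 0.34 with Mcpt4, so the second of these rested on the extreme libraries. With the 2 libraries farthest from the median of Mcpt4 left out, r of Mcpt4 with Tpsb2 was 0.90. Taken as deviations from the group means, r was 0.75 to 0.91 among these 6 pairs. Kit had r of -0.11 with Cpa3, 0.15 with Cma1, 0.19 with Mcpt4 and 0.26 with Tpsb2. As deviations from the group means these were 0.02, 0.36, 0.13 and 0.30 in the same order. Vehicle 4 shows the contrast, with the highest Kit value and the second lowest Cpa3 value of the 16. These are descriptions over 16 libraries that share drug groups and host tissue, and they carry no test.

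**Figure D3:**
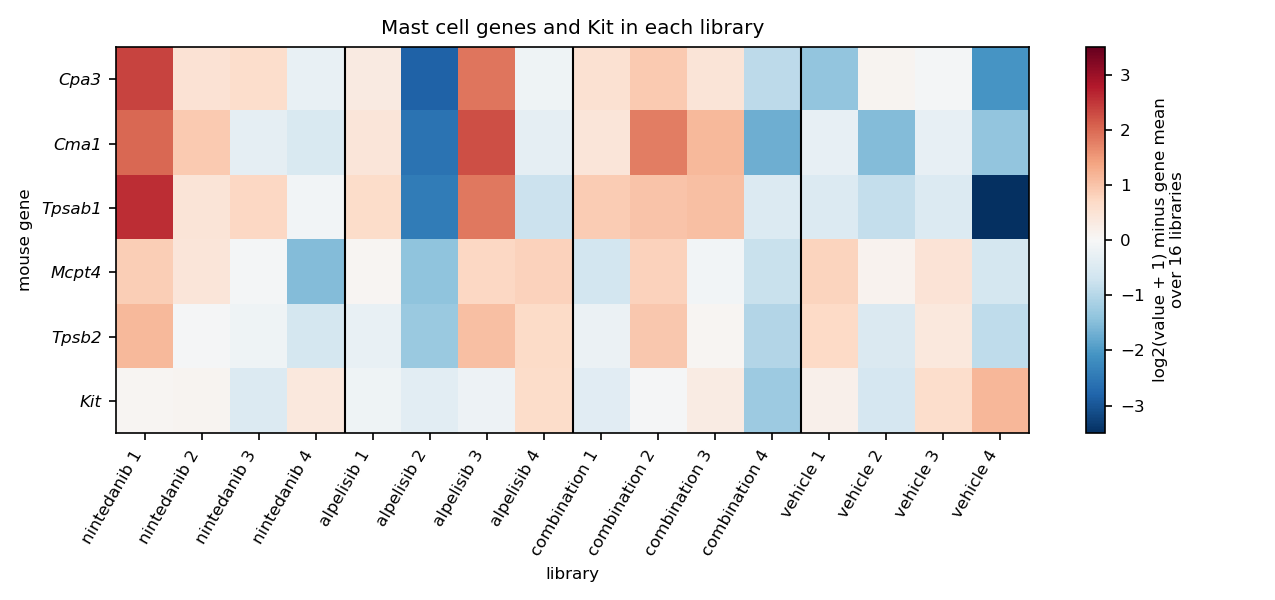
Deviation of log2(value + 1) from the gene's mean over 16 libraries (color, red above and blue below), with genes in rows and libraries in columns, grouped by treatment. Cpa3, Cma1 and Tpsab1 are red together in nintedanib 1 and alpelisib 3 and blue together in alpelisib 2, while Kit is pale in these columns.

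**Figure D4:**
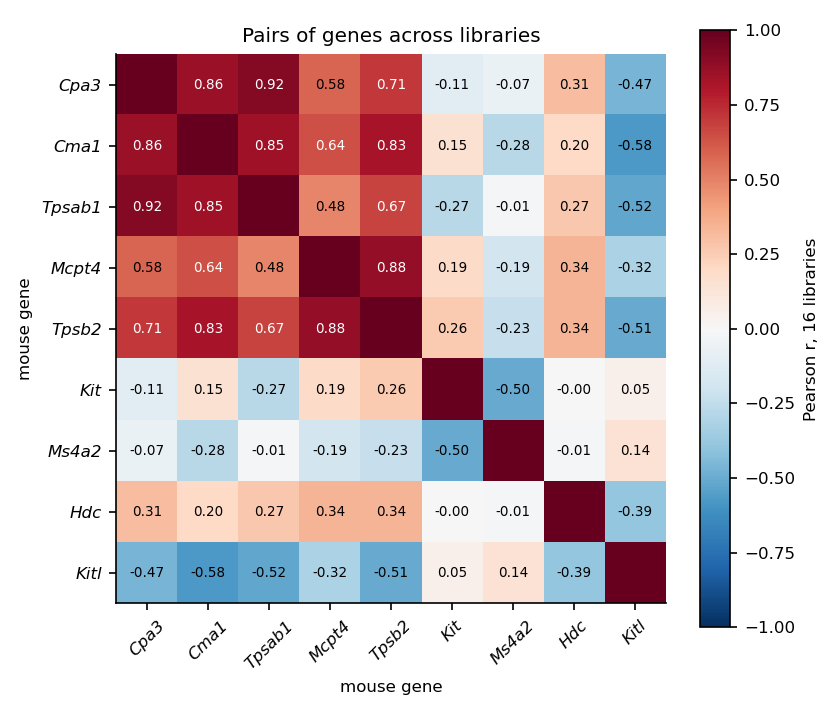
Pearson's r of log2(value + 1) over 16 libraries for each pair of 9 mouse genes (rows and columns), printed in each cell and colored from -1 (blue) to 1 (red). The proteases form a red block, with 0.92 for Cpa3 and Tpsab1 and 0.86 for Cpa3 and Cma1, while the Kit row is pale against them and the Kitl row is blue.

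Genes outside the 6 were ranked by how closely they followed the mean standardized level of the 5 members other than Kit over the 16 libraries. The closest were Hfe (Pearson's r of 0.83), 2210013O21Rik (0.83), Tpsab1 (0.82), Gars (0.81) and Rfx2 (0.81). Kit itself had r of -0.002 with that mean and would rank 8537. That ranking depends on Ms4a2, which has as much weight in the mean as the proteases despite its 9 reads. Without it, an alternative chosen after the values were seen, Tpsab1 (0.81) and Gars (0.80) were still among the 5 closest, Tnfsf12 (0.85) and Ggt5 (0.83) led, and Hfe, 2210013O21Rik and Rfx2 were not among them. Kit then had r of 0.14 and would rank 5475. The genes closest to Kit were Fcrl6 (0.82), Plcg2 (0.82), Sntg2 (0.77), Vmac (0.77) and Scrn1 (0.76). Plcg2, a phospholipase, is one of the listed Kit signalling genes, and no gene of the granule or surface lists was among them. Hdc, which makes histamine, had r of only 0.34 with the mean of the 5 members and of -0.0004 with Kit.

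Of the other mast cell granule and mediator genes, 17 of 18 were tested (Mcpt9 was too low) and 0 passed in any comparison with vehicle by limma. At an unadjusted p under 0.05 there were 3 for nintedanib, 3 for alpelisib and 4 for the combination, where 6.01%, 3.26% and 7.67% of all genes passed. The 3 for alpelisib were Cyp11a1, Ctsg and Cma2. Ctsg and Cma2 had no vehicle read and passed the filter through drug libraries only. They could not lie below vehicle, so the alpelisib count cannot be set against that share. Their median difference was 0.27 for nintedanib, 0.22 for alpelisib and 0.27 for the combination. With genes that vehicle lacked set to their bound the medians were 0.11, 0.22 and 0.14, and the medians of all genes were 0.02, 0.01 and 0.03. Tpsab1, the second tryptase, had 168, 37.8, 45.7 and 25.4 in nintedanib tumours and 43.4, 4.16, 100.5 and 15.7 in alpelisib tumours. It had 51.0, 55.5, 57.3 and 19.3 in combination tumours, against 19.4, 14.9, 19.3 and 1.36 in vehicle tumours. Nintedanib and vehicle did not overlap, and 1.95% of all genes were without overlap in that direction. The difference was 2.26 ± 0.81 (SE, limma adjusted p = 0.697) for nintedanib.

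Srgn, the proteoglycan core of the granule that other blood cells also make, ranged over 474 to 1267 in nintedanib tumours and 639 to 1095 in combination tumours, against 384 to 661 in vehicle tumours. Its differences were 0.72 ± 0.26 for nintedanib and 0.67 ± 0.26 for the combination (SE), with limma adjusted p of 0.700 and 0.549. Cyp11a1, a steroid-making enzyme found in some mast cells, had 3.13 to 9.53 in alpelisib tumours and 3.70 to 19.5 in combination tumours, against 0 to 2.41 in vehicle tumours, without overlap. The shares of all genes without overlap in that direction were 1.15% and 2.01%, and the differences were 1.63 ± 0.63 for alpelisib and 2.10 ± 0.63 for the combination (SE, limma adjusted p of 1 and 0.366). The Cyp11a1 values stand for few reads, with 28 in the alpelisib group and 49 in the combination group, against 5 in the vehicle group. Ctsg had no read in any vehicle library and 0 to 6.27 in alpelisib tumours, and Cma2 had none in vehicle and 0 to 4.33 in alpelisib tumours.

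Mcpt1, the mucosal mast cell chymase, had means of 5.59 with nintedanib, 25.1 with alpelisib and 3.26 with the combination, against 23.1 with vehicle. It had 12.1, 0, 4.69 and 5.53 in nintedanib tumours and 7.56, 32.2, 10.4 and 50.1 in alpelisib tumours. It had 0.739, 3.92, 2.29 and 6.08 in combination tumours, against 41.5, 3.73, 36.2 and 10.9 in vehicle tumours. Combination and alpelisib libraries did not overlap, and 1.49% of all genes were without overlap in that direction. Differences from vehicle were -1.88 ± 0.84 for nintedanib and -2.20 ± 0.84 for the combination (SE), with limma adjusted p of 0.774 and 0.523. Averaged over alpelisib, the nintedanib difference was -2.15 ± 0.59 (SE, limma adjusted p = 0.207), while DESeq2 gave -2.51 with an adjusted p of 0.00743 and edgeR -2.47 with an adjusted p of 0.165. The call in DESeq2 was the only 1 made for a mast cell or Kit list gene, and over the other settings the adjusted p was 0.154 to 0.385. DESeq2 called 158 of 17298 mouse genes in that comparison, against 17 of 17484 in limma. Adipocyte and endothelial markers were among the lists with the same direction as Mcpt1. For nintedanib averaged over alpelisib, 8 of 8 adipocyte markers were lower by the limma estimate, with a median of -1.40 and 0 called. Endothelial markers were lower in 8 of 8, with a median of -0.67 and 2 called, where 0.0972% of all genes were called. Skin and hair markers were lower in 7 of 10 (median -0.19), melanocyte markers in 5 of 8 (median -0.25) and basophil markers in 2 of 3. Skeletal muscle markers were higher in 10 of 10, neutrophil in 5 of 5, fibroblast in 6 of 8 and macrophage markers in 4 of 7. Of all genes, 52.5% lay above 0. The summed adipocyte level was 212 to 1994 in nintedanib tumours, 161 to 12739 in alpelisib tumours and 173 to 4143 in combination tumours, against 169 to 20970 in vehicle tumours. It was highest in vehicle 1, alpelisib 4 and alpelisib 2, where Mcpt1 had 41.5, 50.1 and 32.2, but only 210.0 in vehicle 3, where Mcpt1 had 36.2. The part of fat tissue or vessels in the Mcpt1 values was not tested.

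Of the mast cell surface and transcription factor genes, all 12 were tested and 0 passed in any comparison with vehicle by limma. At an unadjusted p under 0.05 there were 0 for nintedanib, 1 for alpelisib and 0 for the combination, where 6.01%, 3.26% and 7.67% of all genes passed. Differences had medians of 0.20 for nintedanib, 0.13 for alpelisib and 0.36 for the combination. Gata2, a transcription factor that mast cells share with progenitors and endothelium, had 32.7, 18.5, 11.7 and 36.5 in nintedanib tumours and 36.8, 21.8, 32.9 and 29.8 in alpelisib tumours. It had 28.8, 22.2, 17.2 and 17.2 in combination tumours, against 19.4, 11.2, 12.1 and 9.55 in vehicle tumours. Alpelisib and vehicle did not overlap for Gata2, where 1.15% of all genes were without overlap in that direction, with a difference of 1.18 ± 0.41 (SE, limma adjusted p = 1), and the nintedanib difference was 0.80 ± 0.41 (adjusted p = 0.861). Fcer1g, a signalling chain that macrophages also carry, had 1566 to 1812 in nintedanib tumours and 1072 to 1456 in vehicle tumours, without overlap as for 1.95% of all genes, and differed by 0.42 ± 0.27 (SE, limma adjusted p = 0.887). Csf2rb, a cytokine receptor chain, differed by 0.28 for nintedanib and 0.37 for the combination (limma adjusted p of 0.896 and 0.704). Il1rl1, the IL-33 receptor, and Cd200r3 differed by -0.50 and 0.88 for alpelisib (limma adjusted p of 1 for both). Fcer1a and Mrgprb2, a receptor for basic secretagogues on mast cells, differed by 1.53 and 1.34 for the combination (limma adjusted p of 0.676 for both). Mrgprb2 was at most 7.05 in any library and Gata1 at most 8.71.

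The ligand of Kit showed no passing difference in host or tumour cells. Host Kitl, stem cell factor, had 53.2, 131, 90.2 and 101.7 in nintedanib tumours and 78.4, 96.7, 84.1 and 93.2 in alpelisib tumours. It had 57.7, 36.6, 60.8 and 111.5 in combination tumours, against 82.1, 88.3, 112 and 101 in vehicle tumours. The lowest Kitl values were in combination 2, nintedanib 1 and combination 1, and all groups overlapped. Kitl differed by -0.09 for nintedanib (95% interval -0.73 to 0.55), -0.12 for alpelisib (-0.75 to 0.52) and -0.62 for the combination (-1.26 to 0.02), with limma adjusted p of 0.977, 1 and 0.660. Over 16 libraries, r of Kitl was 0.05 with Kit and -0.49 with the mean of the 5 other members.

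Human KITLG, the tumour cells' own stem cell factor, ranged over 125 to 259 in nintedanib tumours, 155 to 220.2 in alpelisib tumours and 123 to 301 in combination tumours, against 114 to 204 in vehicle tumours. It differed by 0.26, 0.25 and 0.08 in that order, with limma adjusted p of 0.749, 1 and 0.969 over 17663 human genes. Of 6 human genes for mast cell growth factors, 5 were tested and 0 passed by limma, where 0% of human genes passed in each comparison with vehicle. At an unadjusted p under 0.05 there was 1 for nintedanib, IL33, where 11.6% of human genes passed, and 0 for the other groups. Human IL33, an alarmin that activates mast cells, had 101, 138, 184 and 121 in nintedanib tumours, against 54.3, 63.7, 59.4 and 75.7 in vehicle tumours. These groups did not overlap, 4.86% of human genes were without overlap in that direction, and the difference was 1.07 ± 0.38 (SE, limma adjusted p = 0.316). Human IL33 had 35.7 to 205 in alpelisib tumours and 61.3 to 121 in combination tumours, both overlapping vehicle, with differences of 0.42 and 0.50. Host Il33 had 170 to 351 in nintedanib tumours, 120 to 438 in alpelisib tumours and 180.4 to 479 in combination tumours, against 68.4 to 269 in vehicle tumours. It differed by 0.80, 0.57 and 1.06, with limma adjusted p of 0.861, 1 and 0.543.

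Among the 26 genes of Kit ligand and signalling, 25 were tested and 0 passed in any comparison with vehicle by limma. At an unadjusted p under 0.05 there were 2 for nintedanib, 0 for alpelisib and 3 for the combination, where 6.01%, 3.26% and 7.67% of all genes passed. Differences had medians of 0.12, 0.02 and 0.05 for nintedanib, alpelisib and the combination. In the other comparisons limma also called 0. There the unadjusted counts were 5 for combination minus nintedanib and 5 for alpelisib averaged, where 5.14% and 5.28% of all genes passed. They were 1 for combination minus alpelisib, 1 for the interaction and 2 for nintedanib averaged, where 5.76%, 3.12% and 8.8% passed. Btk, a kinase downstream of the IgE receptor and of B cell receptors, had 89.5 to 132 in nintedanib tumours and 91.0 to 144 in combination tumours, against 64.7 to 86.0 in vehicle tumours. Btk did not overlap vehicle in either group, where 1.95% and 2.01% of all genes were higher without overlap, and differed by 0.50 ± 0.23 for nintedanib and 0.58 ± 0.23 for the combination (SE, limma adjusted p of 0.819 and 0.560). Cbl, a ubiquitin ligase that turns over activated receptors, had 132 to 149 in nintedanib tumours and 42.4 to 121 in vehicle tumours, likewise without overlap, and differed by 0.85 ± 0.39 (SE, limma adjusted p = 0.804). Lat, an adaptor of IgE receptor and T cell receptor signalling, had 2.96 to 45.1 in combination tumours and 0 to 4.09 in vehicle tumours and differed by 2.74 ± 0.995 (SE, limma adjusted p = 0.481). Sh2b3 and Sos1, an adaptor and an exchange factor in receptor signalling, differed by -0.65 and -0.43 for alpelisib (limma adjusted p of 1 for both).

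The human counterparts served as a check that mouse mast cell reads were not counted as human. Human reads counted as mouse, which would add to the values of the 6 genes, were not tested. Human CMA1 and TPSB2 had 0 reads in all 16 libraries, TPSAB1 had a value above 0 in 1 library and CPA3 was at most 3.40. Human KIT had 2.86 to 18.5 in nintedanib tumours, 13.5 to 20.9 in alpelisib tumours and 9.55 to 16.8 in combination tumours, against 7.91 to 21.2 in vehicle tumours. Human MS4A2 had 3.82 to 6.09 in nintedanib tumours, 0 to 2.09 in alpelisib tumours and 1.05 to 7.41 in combination tumours, against 2.23 to 4.24 in vehicle tumours. Alpelisib and vehicle did not overlap for MS4A2, where 0.685% of human genes were without overlap in that direction, though no library had more than 11 reads of it. In the combination group, human MS4A2 and mouse Ms4a2 were both highest in combination 4. Vehicle libraries, with MS4A2 at 2.23 to 4.24, had no read of mouse Ms4a2. Mouse Ms4a2 had only 9 reads over the 16 libraries, and whether any of them came from human cells was not tested.

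Markers of other host cells varied between libraries beside these genes. The 2 libraries nintedanib 4 and combination 1 were rich in skeletal muscle transcripts, whose 10 markers summed to 187205 and 109876, against 69.9 to 25571 in the other libraries. Alpelisib 1 was rich in skin epithelium and hair transcripts. Over 16 libraries the mean log2 level of 7 macrophage markers had r of 0.71 with the mean standardized level of Cpa3, Cma1, Mcpt4 and Tpsb2. It had r of 0.15 with Kit. The 18 other mast cell granule and mediator genes had r of 0.69 with the 4 proteases and -0.16 with Kit. The 12 surface and transcription factor genes had 0.63 and 0.09. For 8 fibroblast and 5 neutrophil markers r with the 4 proteases was 0.52 for both, and for 8 endothelial markers it was -0.26, with 0.48 for Kit. It was -0.41 for skeletal muscle, -0.31 for melanocyte, -0.08 for adipocyte, -0.03 for basophil and -0.02 for skin markers.

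Summed macrophage markers were 16205 to 19918 in nintedanib tumours, 16867 to 29088 in alpelisib tumours and 12009 to 38006 in combination tumours, against 12407 to 24646 in vehicle tumours. Summed neutrophil markers were 1203 to 3154 in nintedanib tumours, 1052 to 1626 in alpelisib tumours and 914 to 2181 in combination tumours, against 854 to 1066 in vehicle tumours. Summed endothelial markers were 1714 to 3636 in nintedanib tumours, 3132 to 4296 in alpelisib tumours and 1889 to 2878 in combination tumours, against 3363 to 4238 in vehicle tumours. Endothelial sums were lower in all combination libraries than in any vehicle library. Of the 8 single endothelial markers, 4 were lower without overlap there, where 3.85% of all genes were without overlap in either direction. Neutrophil sums, and 2 of 5 single markers, were higher in all nintedanib libraries than in any vehicle library, as for 1.95% of all genes. Mean endothelial sums were 2529 with nintedanib, 3631 with alpelisib and 2322 with the combination, against 3835 with vehicle. Kit overlapped vehicle in all 3 drug groups. Summed melanocyte markers were 5.53 to 23.4, 10.4 to 98.2 and 8.49 to 26.4 in the 3 drug groups, against 6.03 to 59.0 in vehicle tumours, with Pmel at 0 in some libraries of every group. Basophil markers, with Mcpt8 at 18.7 to 133 over all libraries, summed to 21.5 to 92.9, 46.3 to 138 and 27.4 to 81.4, against 19.9 to 118 in vehicle tumours. The part of any of these cells in the values of Kit and the proteases was not tested.

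The balance between proteases within a library was examined after the values had been seen, and is given as a description with no test. It does not depend on library scaling. Cpa3 had 120.3, 44.3, 66.7 and 100 reads per 100 Mcpt4 reads in nintedanib tumours and 50, 13.5, 92.9 and 21.1 in alpelisib tumours. It had 95.5, 45.3, 60.7 and 37.3 in combination tumours, against 8.76, 40.7, 28.6 and 14.3 in vehicle tumours. All 4 nintedanib libraries lay above all 4 vehicle libraries, the closest being nintedanib 2 (95% Wilson interval 33.2 to 59.1) and vehicle 2 (27.8 to 59.4), whose intervals overlap. Set against Tpsb2 instead, the groups overlapped, with 32.3 to 61.1 Cpa3 reads per 100 Tpsb2 reads in nintedanib tumours, 7.58 to 44.6 in alpelisib tumours and 24.8 to 42.7 in combination tumours, against 5.67 to 38.5 in vehicle tumours. Of 17483 other genes, 0.686% had reads relative to Mcpt4 that were higher with nintedanib without overlap. Cma1 reads per 100 Mcpt4 reads were likewise 45.2 to 119 in nintedanib tumours and 16.5 to 31.1 in vehicle tumours, without overlap, and spanned 21.6 to 158 in alpelisib and 27.1 to 127 in combination tumours. Cma1 reads per 100 Cpa3 reads overlapped vehicle in all 3 drug groups, with 67.9 to 171 in nintedanib tumours, 114 to 169.9 in alpelisib tumours and 72.7 to 238 in combination tumours, against 40.5 to 288 in vehicle tumours.

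Tpsab1 reads per 100 Tpsb2 reads were 45.2, 22.9, 29.8 and 23.2 in nintedanib tumours and 30.7, 6.06, 28.3 and 5.80 in alpelisib tumours. They were 34.7, 16.9, 32.1 and 23.5 in combination tumours, against 7, 12.5, 8.89 and 1.49 in vehicle tumours. The nintedanib and combination libraries all lay above the vehicle libraries, and alpelisib had 2 libraries at 28.3 and 30.7 and 2 at 5.80 and 6.06. For 0.309% and 0.704% of other genes, reads relative to Tpsb2 were without overlap in that direction with nintedanib and the combination. Mcpt4 reads per 100 Tpsb2 reads overlapped in all groups, with 32.3 to 83.2 in nintedanib tumours, 48.0 to 76.0 in alpelisib tumours and 44.7 to 72.8 in combination tumours, against 64.7 to 94.8 in vehicle tumours. Intervals and limits cover counting error only, since reads without molecular identifiers are not independent molecules.

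**Figure D5:**
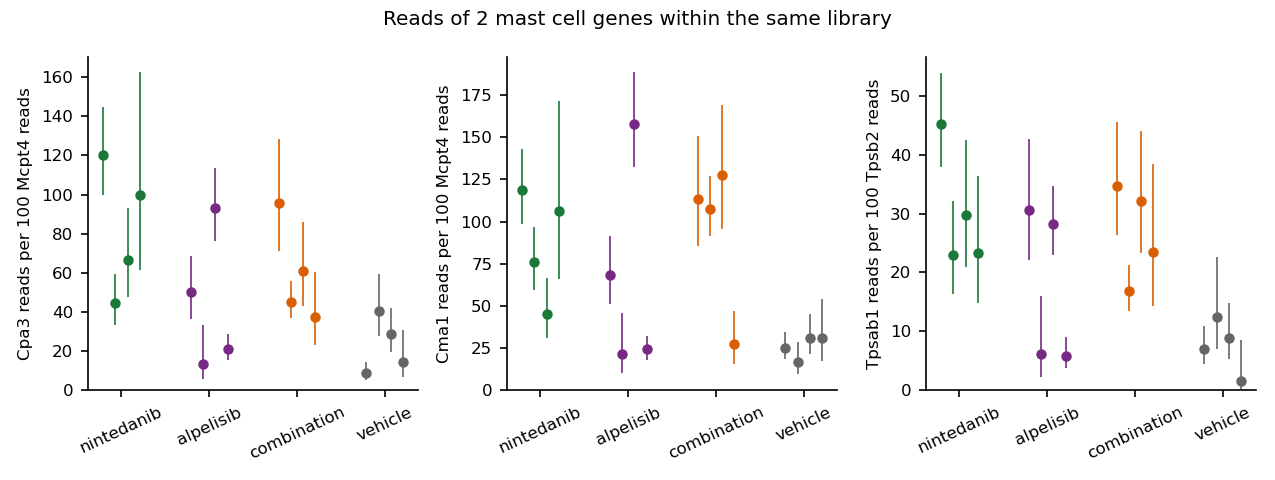
Reads of Cpa3 and Cma1 per 100 reads of Mcpt4, and of Tpsab1 per 100 reads of Tpsb2, in each library (points) with 95% Wilson intervals (bars). Vehicle libraries lie at 8.76 to 40.7, 16.5 to 31.1 and 1.49 to 12.5, and all nintedanib libraries lie above them in the 3 panels.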

How the data were processed

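RNA of whole tumours was sequenced with a 3′ mRNA kit (75-base reads, NextSeq500), per the labels' protocols. TopHat and the builds hg19 and mm10 are named in the submitters' processing notes. How reads were counted and scaled, and with which annotation, is not given in the sources used here. The deposited tables hold signal. A factor per library turned 100% of values above 0 into whole reads within 0.01 read, so values were taken as reads divided by a size factor. Because values are not counts, limma 3.58.1 in R 4.3.3 (lmFit with 1 mean per group, eBayes with trend) was run on log2(value + 1) over 16 libraries, with genes at 1 or more in 4 or more libraries. P-values were adjusted over all genes of a species in each of 8 comparisons, and measure the spread between these libraries, which may be technical. An averaged effect is the mean of a drug's differences without and with the other drug. edgeR 4.0.16 and DESeq2 1.42.0 on recovered reads, other scalings, filters and pseudocount, a replicate block and leaving out libraries were alternatives. The fit was tested on simulated data. The 6 genes, the gene lists and the rule for named genes were chosen with earlier results of these data known. That rule takes all members, up to 3 listed genes per list and comparison with vehicle by smallest p, Kitl and KITLG, and the 5 closest genes by likeness. Tpsab1, Hdc and the marker lists are shown besides it. No sequence or coordinates are given.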

Additional observations from a re-analysis of the deposited data

Results flagged for a closer look

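Within groups of 4 libraries, 4 of 23 member groups held a library whose gap to its neighbour was large for the group's range (Dixon's ratio above its 95% critical value), where chance flags about 1 in 20 groups. Kit in alpelisib 4 had 59.5, against 29.1 to 34.0 in the other alpelisib libraries. Cpa3 in nintedanib 1 had 227, against 35.4 to 65.6 in the other nintedanib libraries, and Tpsab1 and Cma1 were also highest of their group there. Ms4a2 had 1.17 in nintedanib 3, which stands for 1 read, and 1.57 in alpelisib 4, which stands for 2 reads, where the rest of each group was at 0. With 3 of 4 libraries at 0 the ratio is 1 whatever the other value is, so these 2 flags cannot be set against that chance rate.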

How the results depend on the processing

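The count of members called was 0 in all 8 comparisons under all 27 settings tried, with a smallest adjusted p of 0.330 (limma, without combination 4). Ms4a2 was not testable under some settings. DESeq2 moved the count of mast cell and Kit list genes called to 1 for nintedanib averaged over alpelisib, which was Mcpt1. It called 158 of 17298 mouse genes there. Scaled to human plus mouse reads, all genes had a median of 0.14 for nintedanib, 0.23 for alpelisib and 0.32 for the combination minus vehicle (log2). These were 0.02, 0.01 and 0.03 in the main fit. For alpelisib averaged the median was 0.21, against 0.02 in the main fit. That scaling turned Mcpt4 to 0.091 for alpelisib minus vehicle and 0.091 for alpelisib averaged. It turned Kitl to 0.045 and 0.12 for nintedanib and alpelisib minus vehicle. These Mcpt4 and Kitl values are below the median of all genes. Tpsb2 turned to 0.21 for alpelisib averaged, about at that median. For alpelisib averaged, quantile normalization turned Cpa3 to -0.012 and Tpsb2 to 0.011, and edgeR and DESeq2 turned Tpsb2 to 0.076 and 0.065. Without the 2 muscle-rich libraries, Mcpt4 was 0.21 for nintedanib minus vehicle and 0.067 for nintedanib averaged, and Cpa3 was -0.18 for alpelisib averaged. None of these values passed the test, and the cause of each turn was not tested.

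Leaving out 1 library gave Cpa3 -0.033 to 1.53 for alpelisib minus vehicle and -0.29 to 0.49 for alpelisib averaged, and Cma1 -0.033 to 0.78 for alpelisib averaged. Mcpt4 was -0.59 to 0.21 for nintedanib minus vehicle, -0.42 to 0.34 for alpelisib minus vehicle and -0.36 to 0.12 for alpelisib averaged. Tpsb2 was -0.19 to 0.42, -0.21 to 0.57 and -0.31 to 0.36 for nintedanib, alpelisib and the combination minus vehicle, and -0.19 to 0.20 and -0.17 to 0.22 for the averaged effects. Kitl was -0.27 to 0.16 for nintedanib minus vehicle, human KITLG -0.20 to 0.23 for the combination, and human IL33 -0.0068 to 0.82 for alpelisib. Leaving out the skin-rich library is the case without alpelisib 1. Of the log2 differences of named genes under alternatives, 1465 kept direction and side of the threshold and 54 turned.

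Libraries with the same replicate number did not deviate together (r of -0.29 to 0.17 over 24 pairs, 3 above 0.1), so the number was taken only as a name. With it as a replicate block, 0 members were called in every comparison. The count of all mouse genes called for combination minus vehicle was 9, and it was 3 with the block, 7 with edgeR, 82 with DESeq2, 1 scaled to human plus mouse reads, 15 at a value of at least 10, 0 with only the groups compared, 24 without the 2 muscle-rich libraries and 0 to 16 leaving out 1 library. For nintedanib averaged it was 17, and 12 with edgeR, 158 with DESeq2, 3 scaled to human plus mouse reads, 54 without the muscle-rich libraries and 9 to 31 leaving out 1 library. For nintedanib minus vehicle it was 0, and 29 with DESeq2, 1 with only the groups compared, 3 without the muscle-rich libraries and 0 to 3 leaving out 1 library. For combination minus alpelisib it was 0, and 29 with DESeq2 and 1 without the muscle-rich libraries, and for alpelisib minus vehicle 0, and 1 with DESeq2. With 4 libraries a group and the spread seen here, intervals of Cpa3 and Cma1 span over 3 log2 units, and Ms4a2 rests on 9 reads.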
